A study of Mus musculus with 6 samples.

Results

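The tumour necrosis factor (TNF) superfamily was examined by RNA sequencing of hepatic stellate cells isolated from mice. Its genes were taken by symbol from the deposited count table: 43 of 22966 genes, comprising 16 ligand genes, 26 receptor genes and the opposite-strand transcript Tnfsf13os. Hepatic stellate cells store retinoids beside the sinusoids and, after injury, turn into collagen-producing myofibroblasts. All 6 libraries carried the same genotype entry, BucheHep, and a CCl4 (carbon tetrachloride, a liver toxin) treatment entry, and the growth protocol names BucheΔHep mice, and the series describes a knockout of the butyrylcholinesterase gene in hepatocytes. Only the titles separate 3 flox from 3 Cre libraries, so the genotype and CCl4 entries are shared by both groups. The sources used here do not give the promoter driving Cre, the strain, the age, the sex, the number of animals per library or any cell sort. The series title concerns butyrylcholinesterase and the activation of these cells.

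TNF ligands are mostly trimeric membrane proteins that can be shed, and their receptors share cysteine-rich extracellular repeats. Receptors with a cytoplasmic death domain, such as TNFR1 and Fas, can start cell death, while others recruit TRAF adaptors and activate NF-kappa-B, and decoy receptors bind ligand without signalling. In the injured liver, TNF, Fas ligand, TRAIL and TWEAK are known for acting on hepatocytes, progenitor cells, macrophages and stellate cells. Below, CPM are counts scaled by library size and TMM factors and are used to compare a gene between libraries, and FPKM are the deposited values scaled by gene length and library size, used to compare genes with each other.

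Library totals ranged from 37273142 to 41006722 counts, at which 3 counts correspond to 0.0724 to 0.0862 CPM. All 12 stellate cell markers looked up were detected, among them the collagen gene Col1a1 at 243 to 836 CPM, whereas the retinoid-storage enzyme gene Lrat was low, at 0.12 to 2.49 CPM. The stellate markers summed to 2270, 1272 and 950 CPM in flox 1, 2 and 3. In Cre 1, 2 and 3 they summed to 1716, 2107 and 3023 CPM. The macrophage sum given next was higher in every library. Macrophage and Kupffer cell markers moved with the groups: 17 of 18 were lower in Cre and 0 higher, and their summed level was 18829, 24002 and 8444 CPM in flox 1, 2 and 3 against 2548 to 3069 CPM in Cre. Of the dendritic cell markers 2 of 4 tested, Clec9a and Batf3, were lower in Cre, and of the 12 stellate markers Dcn and Hand2 were higher. Mesothelial markers summed to 123.1, 79.1 and 120.8 CPM in flox 1, 2 and 3 and to 374, 428 and 103 CPM in Cre 1, 2 and 3, with 0 of 5 called. For macrophage markers the library flox 3 thus lay between the other flox libraries and the Cre libraries. The sum of 6 sinusoidal endothelial markers was highest in flox 3, at 3405 CPM against 1319 and 1062 CPM in flox 1 and 2 and 1782 to 2852 CPM in Cre. Most of it came from Cdh5 and Pecam1, at 2010 and 904 CPM in flox 3, and Lyve1 and Kdr also exceeded flox 1 and 2 there. Stab2 (115.9, 129.5 and 100.6 CPM in flox 1, 2 and 3) and Clec4g (15.7, 21.5 and 7.16 CPM) were instead lowest in flox 3 among flox. Clec4g was the 1 marker of this list called, lower in Cre (log2 fold change -2.22 ± 0.53, edgeR adjusted p = 0.0404). Hepatocyte markers summed to 146, 232 and 537 CPM in flox 1, 2 and 3, with 0 of 5 called. In Cre 1, 2 and 3 they summed to 146, 38.7 and 208 CPM. In such bulk libraries, fewer cells of a type and less RNA per cell cannot be told apart, and the part of these markers in the results below was not tested. Since no label ties a library to an animal, the p-values below reflect how far these 6 samples scatter, and that scatter could be technical.

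Of the 43 genes, 39 had enough counts to be tested, 15 ligands, 23 receptors and Tnfsf13os. At an edgeR adjusted p below 0.05, 2 rose in Cre (the ligand gene Tnfsf9 and the soluble receptor gene Tnfrsf11b) and 4 fell (the receptor genes Tnfrsf11a, Tnfrsf14 and Tnfrsf1a and the ligand gene Tnfsf18). This is 15.4% of the members tested, against 15.3% of all 14795 genes tested, a share near that of other genes. In the higher direction 6.35% of all genes passed, and in the lower direction 8.94%. By role, 1 ligand rose and 1 fell of 15, and 1 receptor rose and 3 fell of 23. The median log2 fold change, Cre over flox, was 0.11 for ligands and -0.04 for receptors, beside 0.01 for all genes, and 9 ligands and 11 receptors lay on the positive side. The range ran from -2.57 to 1.81 for ligands and from -2.67 to 1.75 for receptors. At an unadjusted p below 0.05 there were 4 ligands and 11 receptors, where 34.8% of all genes passed.

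**Figure D1:**
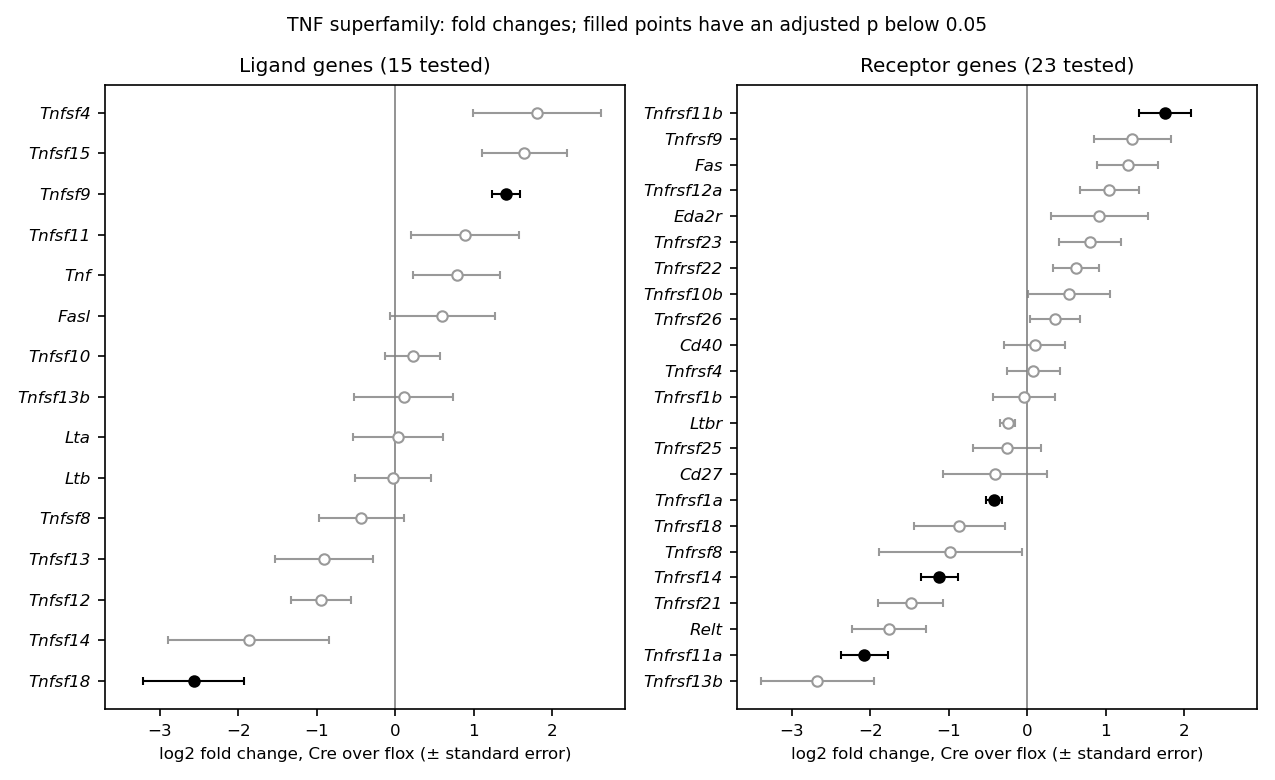
Log2 fold change, Cre over flox, with its standard error (n = 3 libraries per group) for the 15 tested ligand genes on the left and the 23 tested receptor genes on the right, sorted by value. Filled points have an edgeR adjusted p below 0.05: 2 ligands and 4 receptors, with members of both roles spread over both sides of 0.

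Per length, receptor transcripts exceeded ligand transcripts in every library. Summed over the 26 receptor genes the FPKM were 473, 459 and 569.9 in flox 1, 2 and 3, against 610.3, 568.9 and 660.2 for the Cre libraries in the same order. Summed over the 16 ligand genes they were 56.5, 47.5 and 63.9 in flox and 61.6, 58.9 and 132 in Cre. The receptor sum was 4.99 times the ligand sum in Cre 3 and 8.36 to 9.91 times in the other libraries. Cre 3 stood apart through Tnf, which made up 73.1% of its ligand FPKM and 36.9% to 60.95% elsewhere. Among receptors, Tnfrsf1a, Tnfrsf12a, Tnfrsf1b and Ltbr had the highest mean FPKM over all libraries (142, 101.4, 70.2 and 63.1) and together made up 63.6% to 71.6% of the receptor FPKM.

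The RANK axis held the steepest called fall and the steepest called rise among receptors. RANK, encoded by Tnfrsf11a, is the receptor for RANKL on osteoclast precursors and other myeloid cells, and osteoprotegerin, encoded by Tnfrsf11b, is a secreted decoy for RANKL that mesenchymal cells release. Tnfrsf11a (chromosome 1, 105780718 to 105847981 in GRCm38) stood at 95.3, 116.8 and 54.6 CPM in flox 1, 2 and 3 and at 25.4, 17.5 and 20.3 CPM in Cre 1, 2 and 3. Each Cre library was below each flox library, and flox 3 was the lowest of its group. The log2 fold change was -2.08 ± 0.30 (SE, 3 libraries a group, edgeR adjusted p = 0.0237), 4.22-fold lower. Tnfrsf11b (chromosome 15, 54250619 to 54278484) stood at 29.98, 19.2 and 24.6 CPM in flox and at 47.3, 90.7 and 110.8 CPM in Cre 1, 2 and 3. All Cre libraries were higher, Cre 1 by the least, and flox 3 lay within its own group. The log2 difference came to 1.75 ± 0.33 (edgeR adjusted p = 0.0260), 3.37-fold higher. Per length, osteoprotegerin transcripts were 0.741, 0.387 and 1.06 times those of RANK in flox 1, 2 and 3 and 4.38, 12.2 and 12.8 times in Cre 1, 2 and 3. The order of both genes thus turned between the groups, except that flox 3 held them at nearly equal FPKM. Their shared ligand RANKL, Tnfsf11, was sparse, with 15, 30 and 10 counts across flox and 28, 66 and 20 across Cre. These groups overlapped (log2 fold change 0.89 ± 0.68, not called, edgeR adjusted p = 0.390).

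The sequence before the RefSeq start of Tnfrsf11a, the receptor gene with the steepest called fall, is shown with that of Tnfsf18, the ligand gene that fell, and that before the downstream of the 2 Tnfrsf9 starts in RefSeq, chosen after its values and matches were seen because it holds a match to both motifs searched. They are the 250 bases before each start in RefSeq on GRCm38.p6, 5′ to 3′ along the gene's strand (plus for all 3), at chr1:105780473-105780722, chr1:161494407-161494656 and chr4:150927749-150927998, with motif matches in capitals.
Tnfrsf11a: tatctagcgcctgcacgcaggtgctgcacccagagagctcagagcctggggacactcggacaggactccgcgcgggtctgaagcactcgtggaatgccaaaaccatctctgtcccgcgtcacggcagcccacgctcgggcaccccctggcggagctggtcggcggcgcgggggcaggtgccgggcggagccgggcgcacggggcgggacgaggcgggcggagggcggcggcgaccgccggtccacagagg
Tnfsf18: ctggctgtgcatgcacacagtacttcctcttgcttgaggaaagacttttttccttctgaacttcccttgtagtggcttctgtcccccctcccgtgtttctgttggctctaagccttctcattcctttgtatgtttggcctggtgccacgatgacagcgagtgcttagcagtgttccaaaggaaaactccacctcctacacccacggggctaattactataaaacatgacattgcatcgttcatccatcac
Tnfrsf9, downstream start: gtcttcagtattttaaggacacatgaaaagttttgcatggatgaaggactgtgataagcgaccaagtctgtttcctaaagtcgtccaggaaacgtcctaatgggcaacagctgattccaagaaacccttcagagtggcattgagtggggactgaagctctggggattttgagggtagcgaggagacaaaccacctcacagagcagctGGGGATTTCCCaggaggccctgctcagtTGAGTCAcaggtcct
The motifs searched on both strands were the NF-kappa-B consensus and the AP-1 site TGANTCA. In the Tnfrsf9 window the longer run in capitals holds 2 NF-kappa-B matches that overlap by all but 1 base, starting 43 and 42 bases before the start, and the AP-1 match begins 15 bases before it. RefSeq gave 37 such windows for 33 of the 43 genes, of which 4 held an NF-kappa-B match and 6 an AP-1 match, where 7.25% and 6.75% of all 32851 windows did. Of the 6 called genes, 4 had a window and 0 of these held a match. A match is a description of the letters only.

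Tnfsf9, which encodes the 4-1BB ligand, a costimulatory protein of antigen-presenting cells, was the ligand with the smallest p. It stood at 5.91, 5.34 and 6.32 CPM in flox 1, 2 and 3 and at 13.2, 16.3 and 17.3 CPM in Cre 1, 2 and 3. Every Cre library was at least at 13.2 CPM and no flox library above 6.32 CPM, flox 3 included. The log2 fold change was 1.41 ± 0.18 (edgeR adjusted p = 0.0237), 2.67-fold higher. Exons of Tnfsf9 (chromosome 17, 57105325 to 57107757) overlap the antisense Gm11110, and the sources used here do not say whether counting used strand. The gene of its receptor 4-1BB, Tnfrsf9 (chromosome 4, 150914562 to 150946102), stood at 8.14, 7.01 and 24.8 CPM in flox and at 28.8, 39.1 and 33.7 CPM in Cre. Here flox 3 lay close below the Cre libraries and well above flox 1 and 2 (log2 fold change 1.34 ± 0.49, not called, edgeR adjusted p = 0.106). Receptor FPKM were 0.881 and 0.839 times ligand FPKM in flox 1 and 2, 2.51 times in flox 3 and 1.24 to 1.53 times in Cre.

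Tnfsf18, the gene of the GITR ligand, which costimulates T cells, fell. Its counts were 43, 53 and 30 across flox 1, 2 and 3 and 4, 5 and 14 across Cre 1, 2 and 3, or 0.746 to 1.52 CPM against 0.10 to 0.342 CPM. The groups did not overlap, at low counts throughout, and the log2 fold change was -2.57 ± 0.64 (edgeR adjusted p = 0.0433, and 0.0517 in limma-voom). The GITR gene Tnfrsf18 stood at 1.86, 2.27 and 2.01 CPM in flox and at 0.450, 0.844 and 2.08 CPM in Cre, with Cre 3 at the flox level (log2 fold change -0.86 ± 0.58, edgeR adjusted p = 0.328). Exons of Tnfrsf18 overlap the antisense Gm16008. Tnfsf18 (chromosome 1, 161494655 to 161505290) has as a neighbour the OX40 ligand gene Tnfsf4 (161395409 to 161418410), whose counts lay the other way, at 1, 5 and 13 in flox and 21, 16 and 35 in Cre. That difference did not pass (log2 fold change 1.81 ± 0.82, edgeR adjusted p = 0.168).

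Tnfrsf1a, the gene of the widely expressed death-domain receptor TNFR1, fell by a small and even amount. It stood at 337, 361 and 354 CPM in flox 1, 2 and 3 and at 249, 284 and 255 CPM in Cre 1, 2 and 3. The groups did not overlap, and flox 3 matched the other flox libraries. The log2 fold change was -0.42 ± 0.10 (edgeR adjusted p = 0.0427), 1.34-fold lower. With library totals in place of TMM, a change that moves the all-gene median by 0.16, it was -0.26 and did not pass (edgeR adjusted p = 0.149), nor did it without Cre 3 (0.117). Tnfrsf1a passed in 5 of 16 alternatives. Tnfrsf1b, which encodes TNFR2, a receptor without a death domain that is prominent on leukocytes, stood at 405, 452 and 203 CPM in flox and at 296, 219 and 516 CPM in Cre. Its groups overlapped fully (log2 fold change -0.04 ± 0.40, edgeR adjusted p = 0.955, and 0.13 with library totals). Tnf itself stood at 44.4, 32.0 and 63.9 CPM in flox and at 51.3, 36.3 and 154 CPM in Cre 1, 2 and 3. Cre 3 alone exceeded all flox libraries, and the log2 fold change of 0.78 ± 0.56 (edgeR adjusted p = 0.355) became -0.08 without Cre 3. Tnfrsf1b was likewise highest in Cre 3, and so was Cd40 at 43.0 CPM, the receptor of antigen-presenting cells, which was at 27.2, 19.0 and 28.2 CPM in flox and 21.2 and 15.2 CPM in Cre 1 and 2 (log2 fold change 0.09 ± 0.39, edgeR adjusted p = 0.885). Without Cre 3 the log2 fold change of Cd40 was -0.42.

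**Figure D2:**
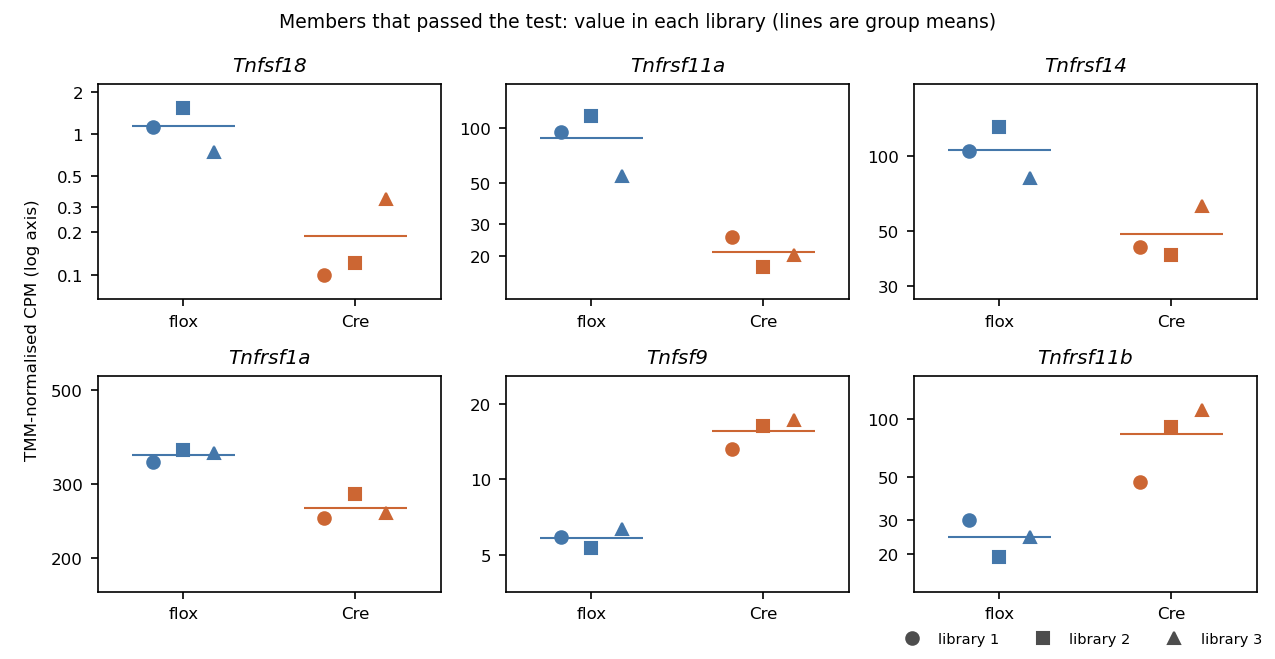
TMM-normalised CPM on a log axis for the 6 members that passed the test, with 1 point per library, a symbol for each library number and a line at each group mean. Flox and Cre libraries do not overlap in any of the 6, and flox 3 (blue triangle) lies nearer to flox 1 and 2 than to the Cre mean in each.

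Tnfrsf14 encodes HVEM, the receptor shared by LIGHT and lymphotoxin alpha, which also engages the inhibitory receptor BTLA. It fell from 105.3, 131 and 81.5 CPM in flox 1, 2 and 3 to 43.1, 39.97 and 63.1 CPM in Cre 1, 2 and 3. The gap between the lowest flox and the highest Cre library was narrow, and the log2 fold change was -1.12 ± 0.24 (edgeR adjusted p = 0.0315), 2.17-fold lower. The LIGHT gene Tnfsf14 stood at 6.77, 8.91 and 0.497 CPM in flox and at 0.475, 1.30 and 2.64 CPM in Cre. It was high in flox 1 and 2 alone, with flox 3 below 2 of the Cre libraries (log2 fold change -1.87 ± 1.02, edgeR adjusted p = 0.242). The other LIGHT receptor, the lymphotoxin beta receptor Ltbr, which drives the noncanonical NF-kappa-B pathway, stood at 161.5, 157.9 and 160.9 CPM in flox and at 129.5, 129 and 145 CPM in Cre. Its groups did not overlap in CPM, but the difference of -0.25 ± 0.09 on the log2 scale did not pass (edgeR adjusted p = 0.116). With library totals Ltbr was at -0.09 (edgeR adjusted p = 0.538). Its FPKM did overlap, at 61.4 to 69.7 in flox and 58.7 to 64.7 in Cre. The lymphotoxin genes overlapped between groups, Ltb at 1.72 to 4.15 CPM in flox against 1.71 to 4.43 CPM in Cre. Lta stood at 0.998, 0.460 and 0.895 CPM in flox and at 0.40, 0.748 and 1.27 CPM in Cre (log2 fold change 0.04 ± 0.57, edgeR adjusted p = 0.970). Ltb turned from -0.03 to 0.14 with library totals, with an edgeR adjusted p of 0.977 and 0.847.

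**Figure D3:**
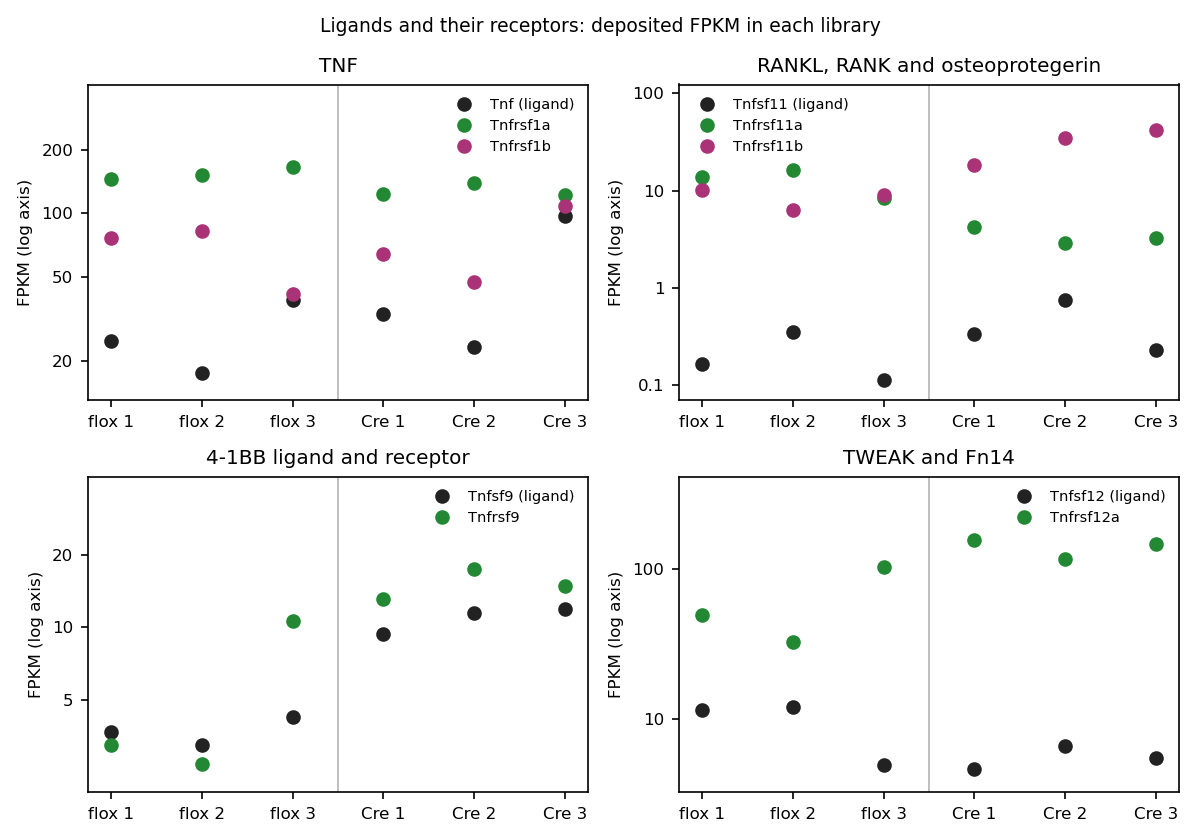
Deposited FPKM on a log axis in each of the 6 libraries for TNF, RANKL, 4-1BB ligand and TWEAK with their receptors, ligands in black. Osteoprotegerin (Tnfrsf11b) rises above RANK (Tnfrsf11a) in the Cre libraries, Tnfsf9 and Tnfrsf9 are both higher there, and flox 3 shares the Tnfrsf9 and Tnfrsf12a levels of the Cre side.

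Several receptors that did not pass had flox 3 on the Cre side. Flox 3 lay nearer to the Cre mean than to flox 1 and 2 in 28 of the 39 tested members (71.8%) and in 57.0% of all genes tested. In TMM-scaled CPM, flox and Cre did not overlap for 15 of the 39 tested members, where 39.6% of all genes tested did not. Cre was above flox in 7 (19.6% of all genes) and below in 8 (20% of all genes). The 6 called were among them, with flox 3 nearer to flox 1 and 2 on the log2 scale, and of the 9 others 8 had it nearer to Cre, Ltbr being the exception. This split is a description only, since a flox 3 far from flox 1 and 2 widens the scatter on which the call depends. Without flox 3, 21 of 41 members tested passed (12 higher, 9 lower), where 34.8% of all genes did. All 6 called genes were kept and 11 receptors and 4 ligands were added. Of the marker sums given above, that of macrophages was intermediate in flox 3 and that of stellate markers was lowest there. Those of sinusoidal endothelial and hepatocyte markers were highest in flox 3. The part of any of them in this pattern was not tested.

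Fas, the death receptor for Fas ligand, stood at 21.1, 13.5 and 42.3 CPM in flox 1, 2 and 3 and at 67.4, 61.5 and 57.9 CPM in Cre. The log2 fold change was 1.28 ± 0.39 (edgeR adjusted p = 0.0695), and 1.85 ± 0.21 without flox 3 (0.00231). Tnfrsf12a, which encodes the TWEAK receptor Fn14, an injury-induced receptor of epithelial and mesenchymal cells, stood at 51.7, 34.7 and 99.7 CPM in flox and at 142, 106.5 and 136 CPM in Cre. Cre 2 exceeded flox 3 only slightly, and the log2 fold change was 1.05 ± 0.37 (edgeR adjusted p = 0.101), or 1.57 without flox 3 (0.00420). Its ligand gene Tnfsf12 lay the other way, at 20.9, 22.4 and 8.30 CPM in flox and 7.36, 10.5 and 8.95 CPM in Cre, with flox 3 among the Cre libraries (log2 fold change -0.94 ± 0.38, edgeR adjusted p = 0.132). Counts of Tnfsf12 are uncertain, since 46.8% of the 50-base stretches of its transcripts also occur in the read-through gene Tnfsfm13. Tnfrsf9 passed without flox 3 as well, with 2.16 on the log2 scale (edgeR adjusted p = 0.000964). Without flox 2, the Fas log2 fold change was 0.98, the Tnfrsf12a log2 fold change 0.77 and the Tnfrsf9 log2 fold change 1.04 (edgeR adjusted p = 0.139, 0.211 and 0.255).

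Receptors that were low in Cre in this way were Tnfrsf21, Relt and Tnfrsf13b. Tnfrsf21, the death-domain receptor DR6, stood at 72.1, 93.6 and 29.3 CPM in flox and at 21.9, 19.2 and 28.5 CPM in Cre. The lowest flox and the highest Cre library were almost level (log2 fold change -1.49 ± 0.41, edgeR adjusted p = 0.0549). Relt, a family member named for its expression in lymphoid tissues, stood at 15.2, 21.3 and 5.35 CPM in flox and at 4.33, 3.91 and 4.11 CPM in Cre (-1.76 ± 0.47, edgeR adjusted p = 0.0517). Tnfrsf13b, the gene of TACI, a receptor of the B cell factors BAFF and APRIL, stood at 10.03, 12.01 and 1.62 CPM in flox and at 0.876, 1.35 and 1.47 CPM in Cre. In all 3 genes flox 1 and 2 were far above the other 4 libraries, which lay close together. The log2 fold change of Tnfrsf13b was -2.67 ± 0.72 (edgeR adjusted p = 0.0516). In DESeq2 all 3 passed (adjusted p = 0.00306 for Tnfrsf21, 0.00179 for Relt and 0.000588 for Tnfrsf13b), where 23.8% of all genes did. In limma-voom the adjusted p was 0.102 for the Tnfrsf21 log2 fold change, 0.141 for the Relt log2 fold change and 0.188 for the Tnfrsf13b log2 fold change, and limma-trend on FPKM called none of the 3 either (0.0756 to 0.107).

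**Figure D4:**
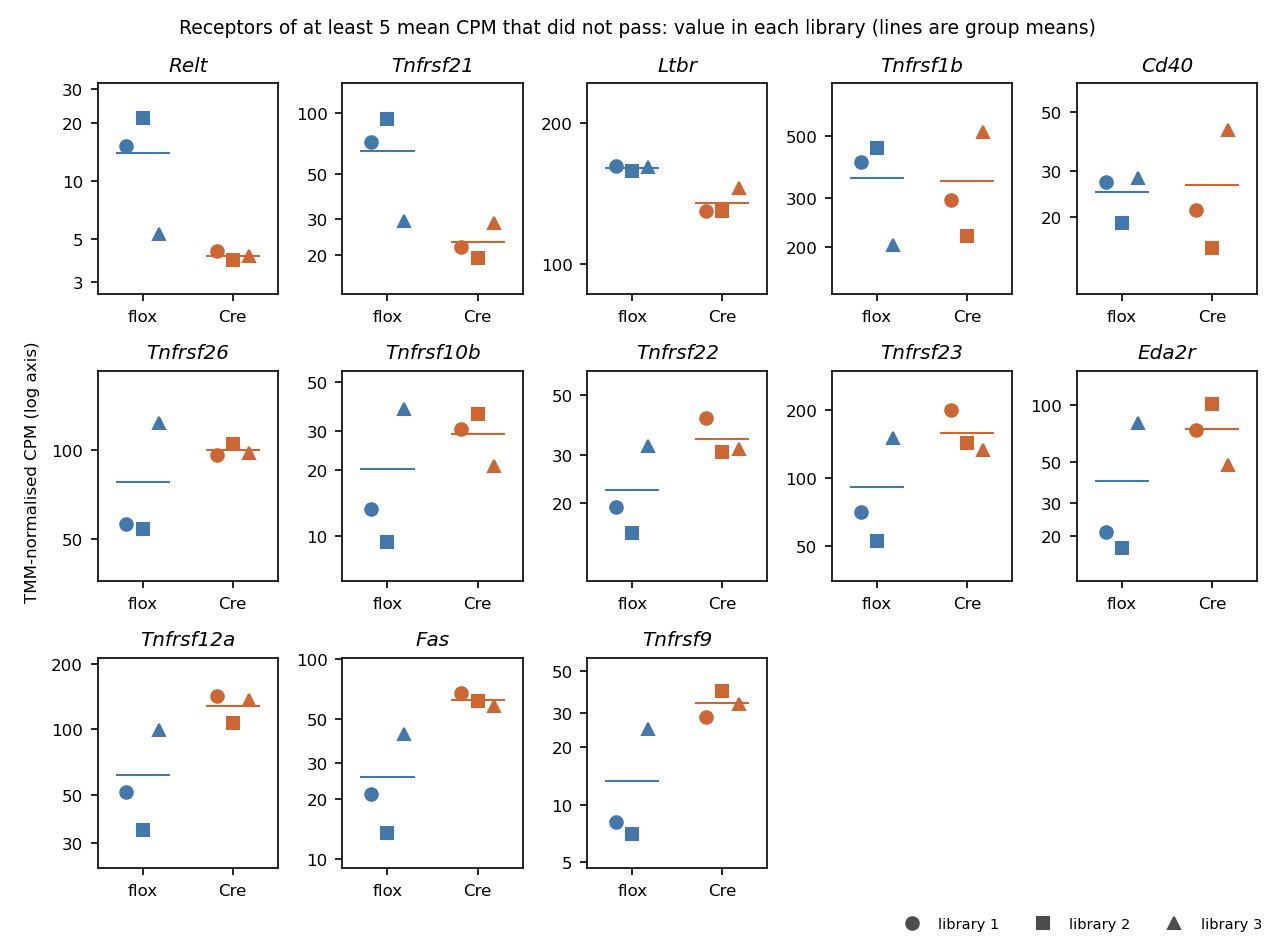
TMM-normalised CPM on a log axis for the 13 receptors with a mean of at least 5 CPM that did not pass the test, with 1 point per library, a symbol for each library number and a line at each group mean. In Relt, Tnfrsf21, Fas, Tnfrsf9, Tnfrsf12a, Tnfrsf10b, Eda2r and the Tnfrsf22, Tnfrsf23 and Tnfrsf26 panels, flox 3 (blue triangle) stands away from flox 1 and 2 at or near the Cre level.

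The TRAIL receptor genes Tnfrsf10b, Tnfrsf22 and Tnfrsf23, and beside them Tnfrsf26, showed the same arrangement with overlapping groups. Tnfrsf10b, the mouse death receptor for TRAIL, stood at 13.3, 9.36 and 37.6 CPM in flox 1, 2 and 3 and at 30.7, 35.6 and 20.8 CPM in Cre. Tnfrsf23, a decoy receptor for TRAIL, stood at 70.8, 52.6 and 150.6 CPM in flox and at 199.8, 143.7 and 133.4 CPM in Cre. Tnfrsf22, another such decoy, stood at 19.3, 15.4 and 32.5 CPM in flox and at 41.2, 30.9 and 31.6 CPM in Cre. Tnfrsf26 stood at 56.2, 54.1 and 123.7 CPM in flox and at 96.3, 104.9 and 98.0 CPM in Cre. In each of these 4 genes flox 3 exceeded at least 1 Cre library, and log2 fold changes of 0.36 to 0.80 did not pass (edgeR adjusted p from 0.178 to 0.4995). Without flox 3 all 4 passed, at 0.86 for Tnfrsf26, 0.998 for Tnfrsf22, 1.36 for Tnfrsf10b and 1.37 for Tnfrsf23 (edgeR adjusted p from 0.00165 to 0.0146). Without flox 2 they were 0.16, 0.43, 0.20 and 0.53 in the same order (0.403 to 0.841), and flox 3 left out was the 1 of 16 alternatives under which each passed. Tnfrsf26, Tnfrsf22 and Tnfrsf23 lie next to each other on chromosome 7 (143607659 to 143685872). Of the 50-base stretches of Tnfrsf22 and Tnfrsf23 transcripts, 27.42% and 18.01% occur in another gene, each other included, so their counts are uncertain, and exons of Tnfrsf23 and Tnfrsf26 overlap the antisense E230032D23Rik. The TRAIL gene Tnfsf10 stood at 27.4, 23.6 and 55.9 CPM in flox and 36.2, 52.7 and 35.8 CPM in Cre (log2 fold change 0.22 ± 0.35, edgeR adjusted p = 0.684). Leaving out 1 library took Tnfsf10 from 0.0062 without flox 2 (0.994) to 0.71 without flox 3 (0.0417). Eda2r, the receptor for ectodysplasin A2, stood at 21.1, 17.3 and 80.0 CPM in flox and at 74.1, 102 and 48.0 CPM in Cre, with flox 3 above 2 of the Cre libraries. The log2 difference came to 0.92 ± 0.62 (edgeR adjusted p = 0.329). It was 0.57 without flox 2 (0.616), 0.62 without flox 1 (0.611) and 1.96 without flox 3 (0.00767), the 1 pass for Eda2r in 16 alternatives.

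The remaining members were low. Of the 39 tested, 18 had a mean below 5 CPM, 11 ligands, 6 receptors and Tnfsf13os, and of these Tnfsf18 was the 1 called. Tnfsf15, the ligand TL1A, was counted 31, 21 and 86 times in the flox libraries and 107, 157 and 192 times in Cre. Its groups did not overlap (Tnfsf15 log2 fold change 1.64 ± 0.54, not called, edgeR adjusted p = 0.0842, 0.0152 in DESeq2 and 0.0689 in limma-voom). Its receptor gene Tnfrsf25 overlapped between groups, with 24 to 48 counts in all 6 libraries. The BAFF and APRIL genes Tnfsf13b and Tnfsf13 overlapped as well, at 28 to 117 and 26 to 121 counts, and 57.3% of the 50-base stretches of Tnfsf13 occur in Tnfsfm13. Tnfsf13os, which runs antisense to Tnfsf13, was counted 57, 42 and 11 times in the flox libraries and 9, 25 and 1 times in Cre (log2 fold change -1.79 ± 1.03, edgeR adjusted p = 0.265). Fasl had 7 to 29 counts, Tnfsf8 13 to 32, Cd27 10 to 42, Tnfrsf8 12 to 158 and Tnfrsf4 89 to 191, and none passed, with edgeR adjusted p from 0.475 to 0.887. Cd70, Tnfrsf13c, Tnfrsf17 and Tnfrsf19 did not pass the count filter of the edgeR test. Cd70 had 3 counts in Cre 3 and 0 elsewhere, Tnfrsf17 had 1 count in flox 1 and in Cre 1, and Tnfrsf13c had 0 to 23 counts. Tnfrsf19, which encodes the receptor TROY, was counted 0, 1 and 1 times in the flox libraries and 23, 1 and 30 times in Cre 1, 2 and 3, so Cre 2 lay at the flox level. DESeq2, run without that filter, called Tnfrsf19 (adjusted p = 0.0244), while edgeR without flox 3 did not (0.0930). Tnfrsf13c passed in neither (0.602 and 0.380). Family genes with other symbols were few in counts, with Eda at 17 to 45, the CD40 ligand gene Cd40lg at 0 to 11 and the nerve growth factor receptor gene Ngfr at 30 to 254. T and NK cell markers, whose cells express many of these costimulatory members, summed to 7.11 to 21.4 CPM in flox and 5.23 to 12.3 CPM in Cre, with 0 of 8 called.

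Genes that act next to the receptors changed in a share close to that of all genes. Of 37 such genes, all tested, 1 rose and 4 fell, 13.5% against the 15.3% of all genes, with a median log2 fold change of -0.04. Casp8, the initiator caspase of death receptors, fell from 135, 144 and 111 CPM in flox 1, 2 and 3 to 78.8, 86.0 and 73.3 CPM in Cre (log2 fold change -0.72 ± 0.13, edgeR adjusted p = 0.0250). Ripk1, the kinase that joins TNFR1 to survival or death, fell from 144, 145 and 125 CPM to 95.8, 104.4 and 103.3 CPM (-0.45 ± 0.10, edgeR adjusted p = 0.0367). With library totals Ripk1 was at -0.29 and no longer passed (0.0764), and exons of the predicted gene Gm17084 and of the antisense Serpinb6a overlap it. Sharpin, a subunit of the linear ubiquitin ligase that acts on the TNFR1 complex, and Map3k14, the NF-kappa-B inducing kinase of the noncanonical pathway, fell as well, by 0.70 ± 0.15 and 0.60 ± 0.14 on the log2 scale (edgeR adjusted p = 0.0315 and 0.0399). With library totals Map3k14 was at -0.44 (0.0691), and an uncharacterised gene shares exon positions with it. Groups did not overlap in these 4 genes. Traf4, a TRAF family adaptor, rose from 8.61, 8.16 and 11.1 CPM to 23.3, 17.3 and 16.5 CPM (1.04 ± 0.21, edgeR adjusted p = 0.0278). The uncalled genes of lowest p were the ubiquitin ligase gene Birc2, which encodes cIAP1 (0.45 ± 0.12), the linear-chain deubiquitinase gene Otulin (-0.47 ± 0.14), the TNFR1 adaptor gene Tradd (-0.40 ± 0.12) and the TNF-shedding protease gene Adam17 (-0.39 ± 0.13). Their edgeR adjusted p ran from 0.0509 to 0.0816. Exons of Adam17 overlap the antisense Iah1, and Birc2 passed with library totals (0.61, edgeR adjusted p = 0.0281). The others shrank there, Otulin to -0.31, Tradd to -0.24 and Adam17 to -0.23 (edgeR adjusted p = 0.127, 0.187 and 0.174). Without flox 3, 16 of the 37 passed, where 34.8% of all genes did, so calls rose in the whole table as well. Without Cre 3, 2 of the 37 passed, and fewer of all genes passed there as well.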

How the data were processed

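RNA was sequenced from 6 libraries, 3 flox and 3 Cre, grouped by title. Per the labels' protocols, 1.3 µg of total RNA from a column kit entered a SMARTER mRNA library preparation. The deposited raw counts per gene symbol are the authors' (22966 genes, 1349 at 0 in every library, 0 rows without a name). The FPKM values deposited by the authors equal the count over the library total and 1 length per gene to within 2.06e-08, checked on the 11560 genes above 50 counts throughout, which leaves no room for a composition factor. GRCm38, mm10 and hg38 are listed, without a role, per the submitters' processing notes. The sources used here do not give an aligner, a counting tool, an annotation or the use of strand. Positions, overlaps and shared 50-base stretches are from GENCODE M21 on GRCm38, where all 43 symbols matched.

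Counts were tested with edgeR 4.0.16 (R 4.3.3, TMM factors 0.905 to 1.07, filterByExpr with minimum count 10 and minimum total 15, which removed 8171 genes, quasi-likelihood F-test, two-sided, no covariate). P-values were adjusted by Benjamini-Hochberg over all 14795 genes, with calls below 0.05. Standard errors are the absolute log2 fold change over the square root of F. Alternatives were RLE factors, library totals, DESeq2 1.42.0, limma-voom and limma-trend (limma 3.58.1), other filters, each library left out and a replicate block. With 3 against 3 libraries an exact permutation p has a floor of 0.10 and was not used. Every library pair differed by more than sampling noise (lowest chi-square per gene 33.98). The methods were tested on counts simulated for this comparison over 14795 genes: edgeR called 16% of 100 genes changed by 1 and 68% of 100 changed by 2 on the log2 scale, with 9 of 14343 unchanged genes. DESeq2 called 43% and 83% of them, with 54 of 14595 unchanged genes, and so made more false calls than edgeR there. For limma-voom the values were 15% and 68%, with 8 of 14343 unchanged genes. Only the genes changed by 1 or 2 were altered, up and down alike, a far smaller share than the 15.3% called in the data. The rates may therefore differ in the real comparison.

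Members follow the symbol rule. Values in each library are given for called members, for members of at least 5 mean CPM and for ligands or receptors of called members, other members by ranges, except a few singled out after their values were seen (Tnfsf4, Tnfsf15, Tnfrsf13b, Tnfrsf19, Tnfsf13os). From the 37 signalling genes the called and the 4 uncalled of lowest p are named. Members and lists were chosen with earlier results of these data known. Edar and Trac were not analysed here.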

Additional observations from a re-analysis of the deposited data

How the results depend on the processing

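The direction of the 6 called members and of the 5 called signalling genes held under every alternative that gave them a value, but most calls rest on few libraries. For all genes called, the 2263 calls of the whole table ended without flox 1, flox 2, Cre 1 or Cre 2. At an unadjusted p below 0.05 (edgeR) 3562 to 3978 genes remained there, of 15220 to 15264 tested, and only edgeR was run with a library left out. With 1 library left out the counts ran from 0 to 5329 for all genes, 0 to 15 for receptors, 0 to 6 for ligands and 0 to 16 for signalling genes, the highest each time without flox 3. Tested without flox 3 were 15296 genes, 25 receptors, 15 ligands and 37 signalling genes. Without Cre 3 there were 1369 of 15288 genes, 3 of 24 receptors, 2 of 15 ligands and 2 of 37 signalling genes. DESeq2 called 4044 of 17016 genes, 11 of 25 receptors and 8 of 37 signalling genes, and limma-voom 1404 of 14795 genes and 1 of 15 ligands. With no count filter 1 of 16 ligands and 3 of 37 signalling genes were called. With at least 1 CPM in 3 libraries 1 of 9 ligands tested was called, and with a mean FPKM of at least 1 it was 1 of 6. Tnfsf18 was not among the ligands tested in these last 2 settings. With library totals or FPKM, higher calls made up more of the whole table, 1415 higher and 1066 lower with library totals, against 940 and 1323.

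No pairing of the samples by the replicate numbers in the titles was seen: deviations of same-numbered libraries from their group means correlated at -0.03, -0.10 and -0.06. No library correlated best with its own number. With 3 libraries a group this check cannot exclude a pairing. With a replicate block edgeR left 0 of all genes called, 0 receptors, 0 ligands and 0 signalling genes. At an unadjusted p below 0.05 there were 4296 of 14795 genes, 10 of 23 receptors, 3 of 15 ligands and 17 of 37 signalling genes. Tnfsf18, Tnfsf4 and Tnfsf11 had at most 66 counts in any library, and the part of depth in their values was not tested.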
